A study of Mus musculus with 24 samples.

Results

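The 2 groups compared here were neurons that differed in the protein they were made to express and had not received interleukin-1 beta (IL-1b). All cells of the study were embryonic cortical neurons with the Il1rap-/- genotype, that is, without their own receptor accessory protein for IL-1 (AcP), and were grown in a serum-free neuronal medium. The 24 arrays comprise 4 arms, expressing CD25, AcP, AcPb or AcP together with AcPb, each with a control stimulation or with IL-1b at 10 ng/ml for 4 h, in 3 arrays per group. The comparison rests on the 3 AcP control arrays against the 3 CD25 control arrays, 6 of the 24, over 45037 probe sets after the 40 hybridisation control probe sets were left out. AcPb is the neuronal splice form of AcP. CD25 is the alpha chain of the interleukin-2 receptor, a protein outside the IL-1 receptor family. The labels give neither the vector or promoter behind each protein nor the share of cells that carried it. They also do not say whether arrays with different numbers came from separate cultures or mice. The p-values therefore measure the spread between arrays of a group, pooled over all 8 groups, which may be technical. Arm and culture cannot be told apart in this design.

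As background, IL-1 binds its receptor, which then pairs with AcP. The intracellular domains of the pair engage MyD88 and the NF-kB and MAP kinase pathways, so Il1rap-/- cells do not respond to the cytokine. Dissociated embryonic cortex gives mostly neurons, with astrocytes, their progenitors and a few other cells that divide or mature among them. Astrocytes exposed to injury or to cytokines of the IL-6 and IL-1 type pass into a reactive state, with more intermediate filament, matrix and acute phase transcripts. Without IL-1b, the arms differ only in the protein expressed, as far as the labels say.

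The markers of the labelled cell type were bright in both groups. Tubb3, the neuronal tubulin, read 5214, 4802 and 4441 on AcP controls 1 to 3 and 4356, 4459.9 and 3899 on CD25 controls 1 to 3, and Map2, a dendritic microtubule protein, read 6453, 5685 and 5717 against 5728, 5840.5 and 5868. Transcripts of astrocytes were bright too, for example Apoe, a lipid carrier, at a mean of 6092 and 4990.0. Markers of blood vessel lining were at or near the floor: Pecam1 was below 0 on all 6 arrays, and Cdh5 and Cldn5 did not exceed 28.01. Of 17 microglia and macrophage markers, 0 were called in either direction by limma's test (3 higher and 0 lower at an unadjusted p under 0.05) and 2 reached 100 in a group, and the mean level of the list was 5.28 to 5.31 on the log2 scale in AcP controls and 5.06 to 5.26 in CD25 controls. Cx3cr1 did not exceed 4.53, while Csf1r read 310.2, 322 and 611 and 546, 717 and 409 with overlapping groups. All intensities are linear, as deposited, with negative values where background was subtracted. Il1rap itself read 137, 138 and 132 on the AcP controls and 123, 119.8 and 124 on the CD25 controls (log2 difference 0.13), and Il2ra, which encodes CD25, read 31.1, 36.01 and 9.15 and 36.3, 40.1 and 36.8 (-0.44), neither difference passing the test. No source used here says which stretch of either transcript the probe sets read, so these values check no label.

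Several arrays stood apart. The median standard deviation (SD) of log2 values within a group was 0.191 for the AcP controls and 0.108 to 0.139 for the other 7 groups. The test below pools this spread over all groups, so the wider spread of the AcP controls is averaged with the rest. AcP control 3 correlated more closely with the CD25 controls (mean r = 0.9838 across probe sets) than with the other AcP controls (0.9781). AcP control 2 gave an intensity of 120.2 for the 5′ ribosomal 18S control, against 7421 to 9031 on the other 5 arrays compared. Among the IL-1b arrays of these arms, used further below, array 2 was low as well, at 300.6 for AcP and 1557.2 for CD25. The cause was not tested. Median intensity ran from 57.36 to 66.41 over the 6 arrays, highest on AcP control 2. The number of probe sets called was 3185 with all arrays, 5146 without AcP control 3, 2294 without AcP control 2 and 2070 without CD25 control 3, with none of opposite sign to the full set.

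Differences between the arms were widespread and leaned to lower expression in the AcP controls. The test was limma's moderated test on log2 intensity, after values below 0 were set to 0 and 16 was added, with 1 fit over all 24 arrays and Benjamini-Hochberg adjustment over all probe sets (called: adjusted p under 0.05). By this rule 1287 probe sets (2.86%) were higher and 1898 (4.21%) lower in AcP controls. With 1 gene symbol represented by its brightest probe set, 792 of 18193 genes were higher (4.35%) and 1054 lower (5.79%). The AcP arrays lay all above the CD25 arrays in 2080 genes (11.4%) and all below them in 2207 (12.1%), and 1794 of the 1846 called genes had no overlap. Without AcP control 3, 2315 probe sets were higher and 2831 lower, without AcP control 2 1031 and 1263, without CD25 control 2 837 and 1476, and without CD25 control 3 810 and 1260. An exact permutation test of 1 gene cannot go below p = 0.1 with 3 arrays against 3. Large differences were nearly all in one direction, since 213 genes were called at least 2-fold lower and 26 at least 2-fold higher, and 49 and 0 at least 4-fold. The median log2 difference was 0 over all genes, 0.33 over genes called higher and -0.53 over genes called lower. Of the called genes, 1141 have several probe sets, and in 982 of those at least 1 other was not called, in 10 another was called in the opposite direction. A fold change on this scale understates the change of dim genes. When only the 6 arrays entered the fit, 405 probe sets were called, of which 360 were among the 3185, and none had the opposite sign. In bulk RNA, fewer cells of a type and less RNA per cell cannot be told apart.

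**Figure D1:**
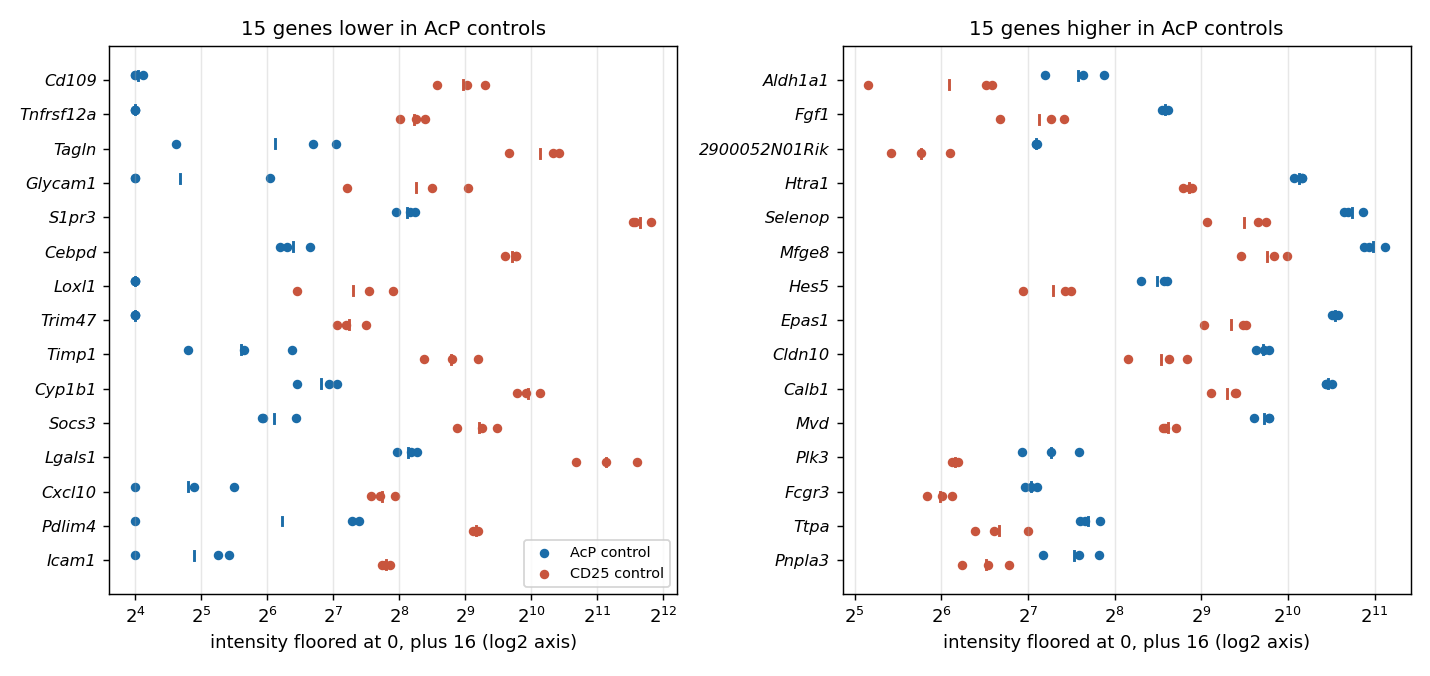
Intensity of the 15 genes with the largest negative (left) and positive (right) differences, chosen among called genes whose arrays do not overlap and whose brighter group reaches 100. Points are arrays, AcP controls in blue and CD25 controls in red, short bars are the means of 3, and the horizontal axes are log2 scales of intensity floored at 0 plus 16. The left genes differ by 2.90 to 4.92 on the log2 scale and the right genes by 1.01 to 1.49, and in 8 of the left genes at least 1 AcP control is at or below 0.

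The genes lowest in AcP controls encode surface receptors, secreted proteins, cytoskeletal proteins and inducible regulators. Cd109, a membrane protein that binds TGF-beta, was below or near 0 in the AcP controls, at -26.7, -79.9 and 1.43, and read 362, 611 and 507 in the CD25 controls (log2 difference -4.92 ± 0.55, SE, adjusted p = 2.4e-05). S1pr3, a receptor for sphingosine 1-phosphate, read 3029.6, 2958 and 3597 in CD25 controls, against 272, 232 and 285 in AcP controls (-3.53 ± 0.20, adjusted p = 5.3e-08). The other 2 probe sets of S1pr3 were called in the same direction. Tnfrsf12a, the receptor of the cytokine TWEAK, was negative on all 3 AcP controls and read 243, 319 and 289 on the CD25 controls. Lgals1, the glycan-binding protein galectin-1, read 274, 235 and 290.5 against 1615, 3087 and 2229 (-3.0 ± 0.30). Cyp1b1, a cytochrome P450 enzyme, read 117, 71.2 and 106 against 868, 947 and 1099.8 (-3.13 ± 0.18). Genes were named here among those without overlap and by size, so their separation is part of the choice and is no finding.

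Array to array spread was wider for some of the others. Glycam1, a mucin-like glycoprotein, read -23.7, -14.5 and 50.1 in AcP controls and 509, 132 and 344 in CD25 controls (-3.56 ± 0.70, adjusted p = 0.004), and its SE is wider than that of Cd109 or S1pr3. Pdlim4, which links actin to signalling proteins, read 139, -20.4 and 151 against 537, 554 and 570.1, the low value being AcP control 2. Its call was lost when only the 12 unstimulated arrays were fitted. Loxl1, which cross-links elastin, and Trim47, a ubiquitin ligase, were below 0 on all AcP controls and read 71.2, 223 and 170.0 and 117, 163 and 129.9 on the CD25 controls. AcP control 3 was the highest AcP array in 12 of the 15 lowest genes, and AcP control 2 the lowest in 10. Of the 15, 14 kept their call under every alternative apart from the fit to the 6 arrays alone, where 8 kept it.

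Genes of reactive astrocytes formed the gene list with the largest share lower in AcP controls. Of 23 on the array, 17 were called lower (73.9%, against 5.79% over all genes), 0 higher, with a median log2 difference of -1.62. Without AcP control 2 or without AcP control 3 the count was again 17, and with only the 6 arrays it was 9. Vim, an intermediate filament, was bright in both arms, at 3557, 2422 and 3245 in AcP controls and 5954, 7047 and 6699.6 in CD25 controls (-1.11 ± 0.12, adjusted p = 1.8e-05). Gfap, the astrocytic intermediate filament that was counted with the astrocyte markers, read 424, 340.3 and 682 against 2379, 1279 and 2149 (-1.98 ± 0.30, adjusted p = 0.00044). Serpina3n, a secreted serine protease inhibitor of the acute phase, read 288, 248 and 261 against 1329.8, 1273 and 1394 (-2.26 ± 0.20). Cd44, the hyaluronan receptor, read 250.4, 188 and 289.5 against 991, 1137 and 963 (-2.03). Timp1, an inhibitor of matrix proteases, read 11.9, 33.99 and 66.8 against 315, 568 and 428 (-3.18 ± 0.44). No array of one arm reached the other arm in any of these genes, as in 1794 of all 1846 called genes. Among the members that did not pass, Steap4 and Cd14 were at or near 0 in AcP controls, and Aspg and Sphk1 were dim in both arms. Lists overlap, since 38 of the 657 different list genes on the array are in more than 1 list, and Timp1 and Serpina3n are among those 38.

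**Figure D2:**
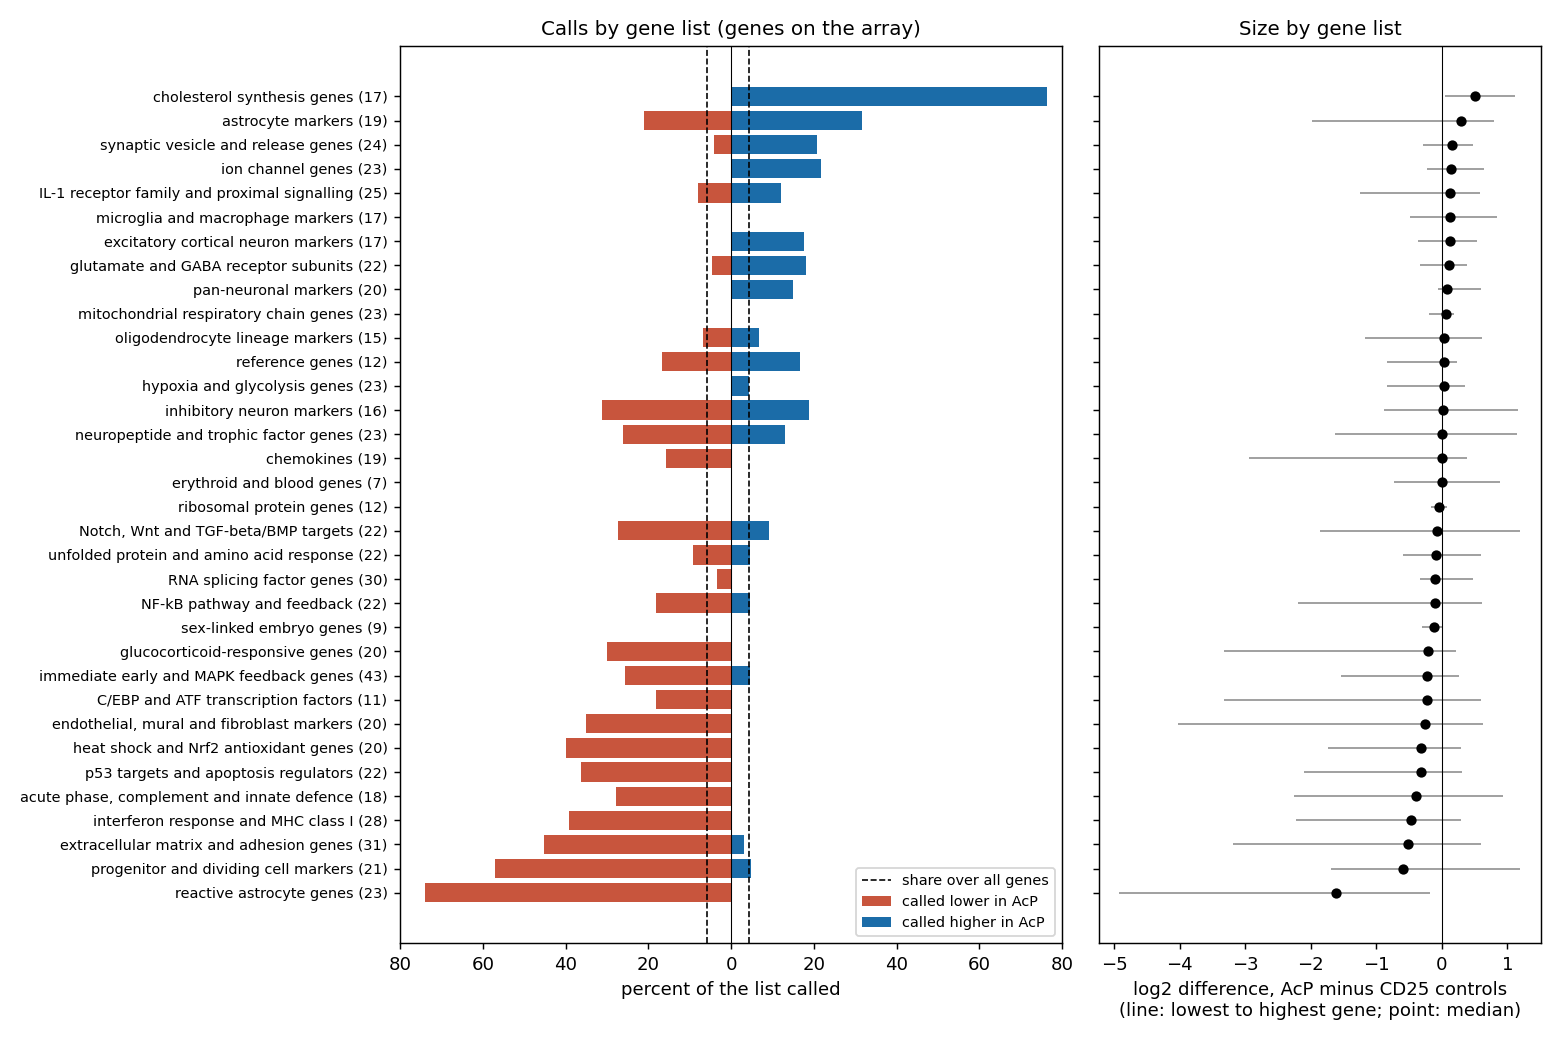
Share of each gene list called lower (red, left) or higher (blue, right) in AcP controls, with the number of list genes on the array in parentheses, and at right the median log2 difference (point) with the lowest and highest gene (line). Dashed lines mark the shares over all genes, 5.79% lower and 4.35% higher. Cholesterol synthesis genes lie at the top (13 of 17 higher) and reactive astrocyte genes at the bottom (17 of 23 lower).

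Osmr, Stat3, Socs3, Cebpd and Cebpb were each called lower in AcP controls. The gp130 and STAT3 pathway carries the signals of the IL-6 family of cytokines, with OSMR as a receptor, STAT3 as the transcription factor and SOCS3 as its feedback inhibitor, and with C/EBP delta among its targets. These 5 genes were put side by side after their values were seen and were no list of their own, so they say nothing of the pathway as a whole. Osmr read 106, 126 and 136 in AcP controls and 498, 472 and 564 in CD25 controls (-1.93 ± 0.18, adjusted p = 3.9e-06). Stat3 read 751, 579 and 739 against 1408, 1479 and 1628 (-1.11 ± 0.13, adjusted p = 2.9e-05). Socs3 read 45.2, 44.8 and 70.8 against 453, 701 and 592 (-3.10 ± 0.27, adjusted p = 2.1e-06), and its other 2 probe sets were called the same way. Cebpd read 57.5, 62.6 and 84.6 against 762, 854 and 855 (-3.33 ± 0.27, adjusted p = 1e-06), and Cebpb, its relative, 152, 153 and 206 against 338, 390.2 and 339.5 (-1.01). Those were the 2 called among 11 C/EBP and ATF factors on the array (18.2%, against 5.79% lower over all genes).

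To set sequence beside these values, the 250 bases before the RefSeq start site were searched for TTCNNNGAA, the core spacing bound by STAT factors, which reads the same on both strands. It was present in 2306 of 32851 windows (7.02%), and in at least 1 window of 2197 of 27025 genes (8.13%). Of 62 named or listed genes called at least 2-fold lower, 48 have a window and 8 hold a match (16.7%): Bst2, Emp1, Fas, Glycam1, Icam1, Irf1, Socs3 and Tgm1. The 62 genes were picked partly for their size of difference, so the 2 shares carry no test, and a match is a description of letters, not a bound site. The windows of 4 of these genes follow, from RefSeq on GRCm38.p6, each 5′ to 3′ on its gene's strand and ending 1 base before the start site, with matches in capitals. Socs3 lies at chr11:117969367-117969616 on the minus strand, Irf1 at chr11:53769764-53770013 on the plus strand, Icam1 at chr9:21015690-21015939 on the plus strand and Emp1 at chr6:135362681-135362930 on the plus strand. They are shown because they pair the motif with a feedback inhibitor, an interferon regulator, an adhesion molecule and a reactive astrocyte gene. The first base of the match lies at -154 in Socs3, -90 in Irf1, -42 in Icam1, and at -120 and -22 in Emp1, counted back from the start site.
Socs3: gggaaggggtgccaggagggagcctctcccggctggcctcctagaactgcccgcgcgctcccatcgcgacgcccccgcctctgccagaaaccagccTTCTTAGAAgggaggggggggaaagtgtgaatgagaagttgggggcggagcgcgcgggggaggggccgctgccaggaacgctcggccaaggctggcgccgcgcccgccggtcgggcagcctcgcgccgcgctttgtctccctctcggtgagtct
Irf1: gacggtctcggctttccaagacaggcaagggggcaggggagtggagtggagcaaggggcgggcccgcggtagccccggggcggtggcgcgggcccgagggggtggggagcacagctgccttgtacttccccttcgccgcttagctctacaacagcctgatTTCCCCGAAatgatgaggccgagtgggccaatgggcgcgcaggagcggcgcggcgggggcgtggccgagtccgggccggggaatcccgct
Icam1: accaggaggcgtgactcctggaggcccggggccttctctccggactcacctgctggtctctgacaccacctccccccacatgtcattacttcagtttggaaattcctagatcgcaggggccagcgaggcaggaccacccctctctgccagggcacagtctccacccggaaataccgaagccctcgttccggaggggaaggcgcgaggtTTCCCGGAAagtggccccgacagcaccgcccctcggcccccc
Emp1: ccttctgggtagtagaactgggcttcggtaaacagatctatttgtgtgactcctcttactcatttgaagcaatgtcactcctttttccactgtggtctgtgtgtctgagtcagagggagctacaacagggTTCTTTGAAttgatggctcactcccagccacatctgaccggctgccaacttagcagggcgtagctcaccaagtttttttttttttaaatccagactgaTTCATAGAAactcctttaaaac

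The values of the genes shown follow, and their direction was fixed by the choice of genes called lower. Emp1, a membrane glycoprotein of reactive astrocytes, read 74.5, 80.96 and 102 against 430.3, 560.5 and 469 (-2.31 ± 0.18). Icam1, the adhesion molecule that leukocytes bind, read 22.1, -11.5 and 26.8 against 204, 197 and 217 (-2.90 ± 0.31). Irf1, an interferon-induced transcription factor, read 73.9, 69.2 and 108 against 181, 309 and 273 (-1.43 ± 0.32, adjusted p = 0.0098). That call was lost in 4 of 21 alternative fits, among them the one without CD25 control 2. Irf1 has 1 probe set, and Icam1 too, so neither has a second reading.

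Interferon-induced and antigen presentation genes were lower in part. Of 28 on the array, 11 were called lower (39.3%) and 0 higher, with a median of -0.47. Without AcP control 2 the count was 9, and with only the 6 arrays 3. Cxcl10, a chemokine induced by interferons and NF-kB, is not one of the 28 and was counted with the chemokines. It was at -2.38, 13.7 and 29.2 in AcP controls and 227, 175 and 193 in CD25 controls (-2.94 ± 0.33, adjusted p = 2.3e-05). Among the 11, Gbp3, a guanylate-binding protein, read 46.9, 40.9 and 69.02 against 263, 146 and 240.3 (-1.75 ± 0.26), and Irgm1, an immunity-related GTPase, 83.3, 63.1 and 115 against 226, 198 and 225 (-1.20). B2m, the light chain of MHC class I, had means of 505 against 919.7 (-0.84 ± 0.09), and the heavy chain H2-K1 read 224, 239 and 177 against 268, 311 and 341 (-0.50 ± 0.09). Another heavy chain, H2-D1, did not pass (0.29, overlapping groups), and the dim peptide transporter subunit Tap2 was called lower (-1.64 ± 0.27). Many of the other 17 genes were dim: Ifit1, a classical interferon target, did not exceed 9.58 on any of the 6 arrays.

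Secreted defence proteins showed the same direction where they were called. Of 18 acute phase, complement and innate defence genes, 5 were lower (27.8%) and 0 higher, and 2 were lower with only the 6 arrays. Lcn2, an iron-sequestering lipocalin, read 15.5, 73.5 and 45.4 in AcP controls and 195, 158 and 203 in CD25 controls (-1.85 ± 0.33), and Ptx3, a secreted pentraxin, 64.2, 75.3 and 92.4 against 268, 360.1 and 333 (-1.85 ± 0.28). Serping1, the C1 inhibitor, had a smaller gap, 24.9, 74.9 and 74.9 against 129, 95.9 and 143, and lost its call without CD25 control 1 or without CD25 control 3. Of 19 chemokines, 3 were lower (15.8%, and 1 with only the 6 arrays), Cxcl10, Cxcl12 and the dim Cxcl5. Cxcl12, which guides migrating neurons and progenitors, read 266, 311 and 299 against 603, 717 and 629.9 (-1.11 ± 0.09), although its other 2 probe sets were not called. Ccl2 and Cxcl1, both inducible by IL-1, had differences of -0.11 and -0.35 that did not pass.

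Genes of the matrix and of adhesion were lower in part. Of 31 matrix and adhesion genes, 14 were called lower (45.2%) and 1 higher, with a median of -0.52, and the same counts were 12 and 1 without AcP control 2 and 2 and 0 with only the 6 arrays. Fn1, fibronectin, read 234, 255 and 178 in AcP controls and 556, 1015 and 851 in CD25 controls (-1.76 ± 0.27), although its other probe set was not called. Col5a2, a fibrillar collagen chain, read 65.2, 66.3 and 49.1 against 222, 386 and 337 (-2.09 ± 0.27). Sparc, a matrix-binding glycoprotein, was bright in both arms at a mean of 1679 against 3207 (-0.94). The 1 member called higher was Lama2, a laminin chain, at 143, 125 and 117 against 95.03, 72.8 and 70.4.

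Markers of vessel wall cells and fibroblasts were lower in part. Of 20, 7 were lower (35%) and 0 higher, and 2 were lower with only the 6 arrays. The mean level of the list was 6.15 to 6.22 on the log2 scale in AcP controls and 6.66 to 6.80 in CD25 controls. Tagln, an actin-binding protein of smooth muscle, read 115, 8.46 and 87.3 against 791, 1356 and 1273 (-4.02 ± 0.56, adjusted p = 0.00021). Myl9, a myosin light chain, read 66.3, 57.6 and 67.8 against 310.0, 375 and 396 (-2.23 ± 0.19). Acta2, smooth muscle actin, read 699, 619.5 and 586 against 1383, 1763 and 2076 (-1.42 ± 0.22), but its other 2 probe sets were not called. Pdgfrb, the receptor that defines mural cells, read 88.4, 77.6 and 91.5 and 98.2, 48.8 and 86.02 with overlapping groups, and Col1a1, the main fibroblast collagen, did not exceed 66.1. The part of such cells in the differences was not tested.

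Markers of dividing cells and progenitors were mostly lower in AcP controls. Of 21 such markers, 12 were lower in AcP controls (57.1%) and 1 higher, with a median of -0.59, and 10 were lower without AcP control 3. Cdk1, the mitotic kinase, read 226, 177 and 197 in AcP controls and 538, 418 and 553 in CD25 controls (-1.26 ± 0.17, adjusted p = 0.00011). Birc5, survivin, read 36.6, 42.8 and 63.1 against 210.2, 151 and 200.3 (-1.69 ± 0.30), and Top2a, the replication topoisomerase, 223, 199 and 236 against 522, 359 and 509.5 (-1.01). Nes, the intermediate filament of progenitors, read 380.3, 489 and 332 against 685, 989.9 and 865 (-1.05 ± 0.18). Sox2, a transcription factor of progenitors and astrocytes, was -0.42 ± 0.08, with means of 1862 and 2487. Mki67 did not pass (-0.74), and Pax6 and Eomes had overlapping groups. The 1 member called higher was Hes5, a Notch target, at 374, 300.2 and 365 against 165, 107 and 156 (1.21 ± 0.16). In fits with only the 6 arrays none of the 21 was called.

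**Figure D3:**
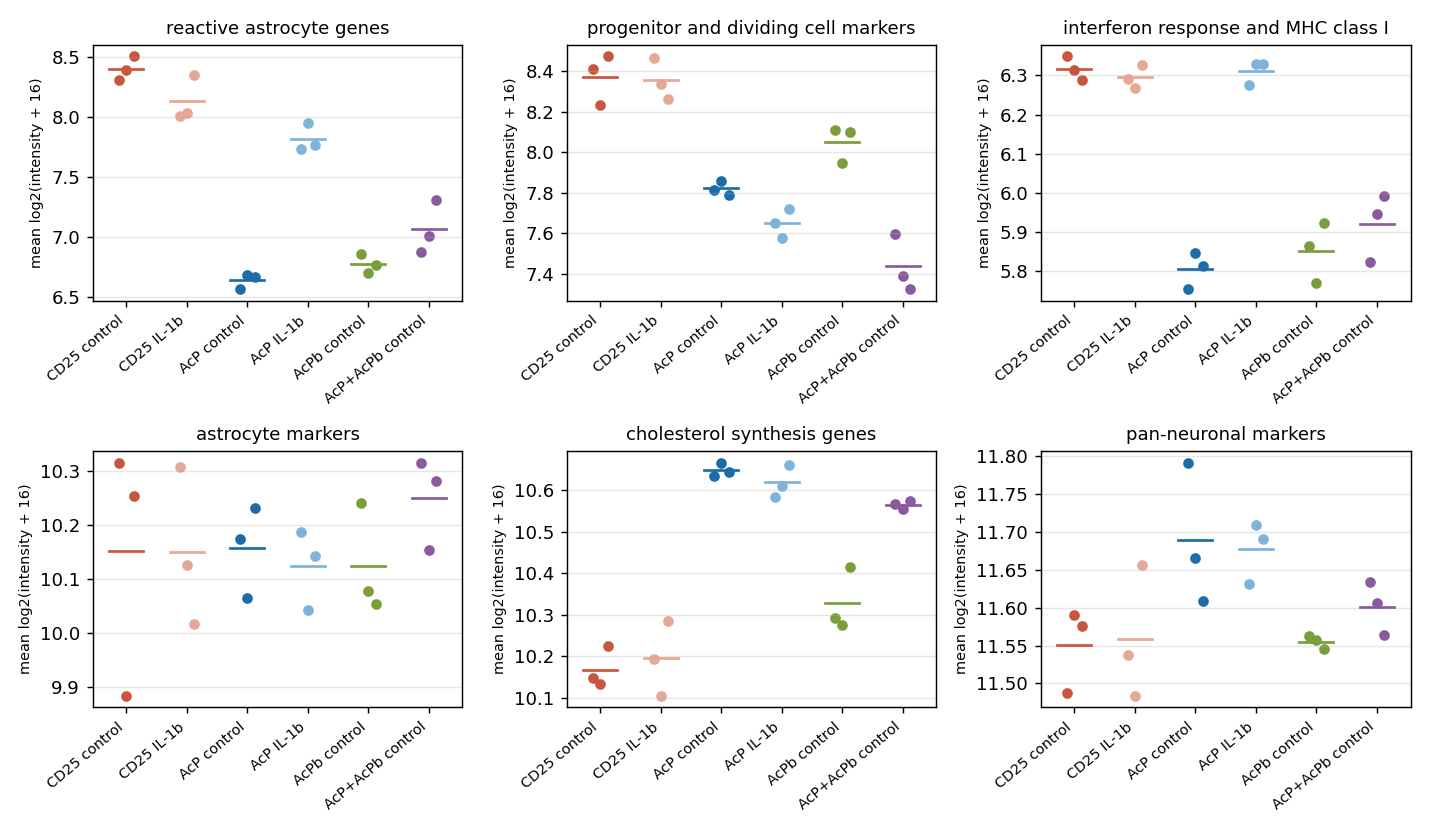
Mean log2(intensity + 16) over the genes of 6 lists on each array, for AcP and CD25 arms with and without IL-1b and for the control arrays of the other 2 arms. Points are arrays and bars are group means of 3, and each panel has its own vertical axis, which does not start at 0. The AcP controls lie below the CD25 controls for reactive astrocyte, progenitor and interferon genes and above them for cholesterol synthesis genes, whereas astrocyte markers overlap.

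Notch, Wnt and TGF-beta or BMP targets gave no single direction. Of 22 in this list, 6 were lower (27.3%, against 5.79% over all genes) and 2 higher (9.09%, against 4.35%). The lower count was 3 without AcP control 1, CD25 control 1 or CD25 control 3, 2 with only the 12 unstimulated arrays, and with only the 6 arrays none was called in either direction. Id3 and Id1, inhibitors of differentiation induced by BMP, were lower, at 215, 179 and 302 against 766, 861 and 974 (-1.86 ± 0.23) and 181, 188 and 208 against 336, 432 and 445 (-1.01 ± 0.20). Among Notch targets, Hey1 and the dim Hey2 were lower (-0.55 and -0.66), Hes5 and Nrarp were higher (1.21 and 0.43), and Hes1 did not pass (0.05, overlapping groups).

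Heat shock and Nrf2 antioxidant genes were lower in part. Of 20 in that list, 8 were lower (40%) and 0 higher, with a median of -0.31, and 2 were lower with only the 6 arrays. Hspb1, a small chaperone that binds actin, read 234, 237 and 176 in AcP controls and 507, 776 and 801 in CD25 controls (-1.60 ± 0.25). Nqo1, a quinone reductase under Nrf2, read 72.7, 40.5 and 54.8 against 181, 305 and 195 (-1.74 ± 0.33), and Hmox1, haem oxygenase, 309.6, 233 and 333 against 622, 647 and 683 (-1.13 ± 0.13). Txnrd1, Gsr, Gclm and Srxn1, of the thioredoxin and glutathione systems, had differences from -0.92 to -0.69. Beside Hspb1, the heat-inducible chaperone Hspa1b was among the 8 (-0.38), and the other members of the list did not pass. Mt1 and Mt2, metal-binding proteins, were lower by smaller amounts (-0.41 and -0.52), with means of 6516 against 8638 and 5818 against 8348.

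Early response genes and apoptosis regulators were lower in part. Of 43 immediate early and MAP kinase feedback genes, 11 were lower (25.6%) and 2 higher, and 8 were lower without AcP control 2. With only the 12 unstimulated arrays 7 were lower and 0 higher, and with only the 6 arrays 1 and 0. Fos, an AP-1 subunit, read 214, 321 and 295 in AcP controls and 679, 881 and 759 in CD25 controls (-1.44 ± 0.17, adjusted p = 4.1e-05). Nptx2, a synaptic pentraxin induced by activity, read 98.7, 54.5 and 81.1 against 212, 328 and 230.3 (-1.54 ± 0.24), although its second probe set was not called. Egr1, Arc and Nr4a1, which also respond to activity, did not pass, and the groups overlapped in all 3. Of 22 p53 targets and apoptosis regulators, 8 were lower (36.4%) and 0 higher, and 5 and 4 were lower without CD25 controls 2 and 3. With array weights or only the 12 unstimulated arrays 5 were lower, and with only the 6 arrays 1. Pmaip1, the BH3-only protein NOXA, had the clearest gap at usable intensity, 128, 110.5 and 182 against 385, 359 and 401 (-1.37 ± 0.21). Mcl1, which protects from apoptosis, was also lower, 1822, 1365 and 1659 against 2222, 2141 and 2076 (-0.42 ± 0.08), with all its other 5 probe sets called the same way. Of 20 glucocorticoid-responsive genes, 6 were lower (30%, against 5.79% over all genes) and 0 higher (1 and 0 with only the 6 arrays). Cebpd, Mt1 and Mt2 are among those 6, while Fkbp5 and Tsc22d3, the defining members of the list, had differences of -0.30 and 0.03 that did not pass.

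Genes higher in AcP controls differed by less, and several are known from astrocytes. Htra1, a secreted serine protease, had the smallest adjusted p of the 15 highest, at 1129.6, 1128 and 1063 in AcP controls and 461, 427 and 453 in CD25 controls (1.28 ± 0.08, adjusted p = 7.5e-08). Fgf1, a growth factor, read 359, 377 and 366 against 155, 86.5 and 138 (1.46 ± 0.14). Mfge8, a bridging protein for phagocytosis, read 2206, 1948 and 1867 against 998, 687 and 898 (1.22 ± 0.14). Selenop, a selenium carrier, read 1855, 1584 and 1643 against 841, 522 and 789.9 (1.25). Epas1, the hypoxia-inducible factor HIF-2 alpha, read 1441, 1463 and 1512 against 702, 509 and 717 (1.19 ± 0.11), while of 23 hypoxia and glycolysis genes 1 was higher and 0 lower. Cldn10, a claudin, read 779.6, 831 and 868 against 442, 269 and 381 (1.18). These genes were taken from those whose groups do not overlap, so the gap between groups is part of their choice. CD25 control 2 was the lowest CD25 array in 11 of the 15.

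The remaining leaders were dimmer or less stable. Aldh1a1, which makes retinoic acid, headed the list by size but with a wide spread, 183, 131 and 220.0 against 79.7, 19.8 and 75.3 (1.49 ± 0.43, adjusted p = 0.046), and lost its call without any 1 of AcP controls 1, 2 and 3 or CD25 controls 2 and 3. Plk3, a stress-responsive kinase, at 138, 176 and 107 against 55.5, 57.4 and 53.6, lost it without any 1 of AcP controls 1 and 2 or CD25 controls 1, 2 and 3. Pnpla3, a lipid hydrolase, at 129, 209 and 177 against 59.6, 93.7 and 77.1, lost it without AcP control 2 or CD25 control 1. Fcgr3, an Fc receptor usually linked to myeloid cells, read 109, 122 and 115 against 53.6, 48.6 and 40.95 (1.05 ± 0.11), beside the microglia list with 0 calls. Ttpa, a vitamin E transfer protein, read 186, 178 and 213 against 113, 67.8 and 81.7. The unnamed transcript 2900052N01Rik read 121, 121 and 121 against 52.8, 26.9 and 38.4. The other 12 of the 15 kept their call under every alternative but the fit to the 6 arrays alone, where 4 of the 15 kept it.

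Astrocyte markers split in both directions. Of 19, 6 were higher (31.6%) and 4 lower (21.1%), with a median of 0.29, and 4 were higher without CD25 control 2. With array medians centred 3 were higher and 4 lower, and with only the 6 arrays none was called in either direction. The mean level of the list ran from 10.07 to 10.23 in AcP controls and from 9.89 to 10.32 in CD25 controls. Sparcl1, a secreted synapse-organising protein, read 5398, 5295 and 5146 in AcP controls and 3377, 2503 and 3261 in CD25 controls (0.80 ± 0.13). Slc1a2, the main glutamate transporter, read 3449, 3493 and 3363 against 2481, 1726 and 2312 (0.67 ± 0.13), and Acsbg1, an acyl-CoA synthetase, 643, 550.3 and 571 against 376, 305 and 354 (0.75 ± 0.13). On the lower side, beside Gfap and Id3, the water channel Aqp4 read 2371, 1974 and 2702 against 4078, 2989 and 4254 (-0.68 ± 0.15). Aldh1l1, a folate enzyme used as a general astrocyte marker, read 810.0, 698 and 790.2 against 1075, 889 and 1116 (-0.41). Slc1a3 and Gja1, which are also general astrocyte genes, had differences of 0.17 and -0.01 with overlapping groups. Oligodendrocyte lineage genes split 1 and 1 among 15 (6.67% each, against 4.35% higher and 5.79% lower over all genes). Olig1 was higher (4367, 4222 and 3805 against 2869.7, 2525 and 3011) and Cldn11 lower (60.7, 62.1 and 77.6 against 195, 137 and 181), the second call being lost without CD25 control 1 or 3.

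Cholesterol synthesis was the list with the largest share higher in AcP controls. Of 17 genes, 13 were called higher (76.5%, against 4.35% over all genes), 0 lower, with a median log2 difference of 0.51, and the lowest member stood at 0.05. Without AcP control 2 the count was 11, with array weights 8 and with only the 6 arrays 4. Mvd, mevalonate diphosphate decarboxylase, read 865, 863 and 766 in AcP controls and 403, 366 and 359.7 in CD25 controls (1.11 ± 0.07, adjusted p = 1.7e-07). Further along the pathway, Fdps read 3663, 4548 and 3696 against 2539.6, 2642 and 2660.1 (0.59 ± 0.08) and Fdft1, squalene synthase, 2906, 2962 and 2815 against 2003, 1934 and 1939 (0.56 ± 0.08). Nsdhl and Dhcr7, which act late in the pathway, read 2515, 2354 and 1916 against 1203, 1247 and 1486 (0.78 ± 0.10) and 1211, 1116 and 1224 against 780.2, 681 and 776 (0.66 ± 0.07). Stard4, a sterol transporter, read 1042, 1103 and 1092 against 650.1, 631 and 680.4 (0.71 ± 0.08). The regulators Srebf2 and Insig1 were higher too (0.28 and 0.52). The 4 members that did not pass were Hmgcs1, Mvk, Lss and Msmo1, with differences of 0.18, 0.61, 0.28 and 0.05. The AcP and CD25 arrays did not overlap in any of the 13, as in 1794 of all 1846 called genes.

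Neuronal genes differed little, and where called they were mostly higher in AcP controls. Of 20 pan-neuronal markers, 3 were higher (15%) and 0 lower, and their median difference was 0.08. The count was 9 higher without AcP control 3, 1 with array medians centred and 0 with only the 6 arrays. Thy1, a surface glycoprotein of mature neurons, read 2546, 2153 and 2191 in AcP controls and 1603, 1681 and 1643 in CD25 controls (0.48 ± 0.05). Snhg11, a neuronal noncoding RNA, lost its call without any 1 of AcP controls 1 and 2 or CD25 controls 1, 2 and 3. Of 17 excitatory neuron markers 3 were higher (17.6%, against 4.35% over all genes) and 0 lower. These counts were 5 and 1 without AcP control 3, and 0 and 0 with only the 6 arrays. Among those higher were Nrgn, a calmodulin-binding postsynaptic protein (3007, 2363 and 2449 against 1890.1, 1665 and 1818, 0.53 ± 0.08), and Fezf2, a factor of deep-layer neurons (391, 379 and 441 against 291, 262 and 278, 0.52 ± 0.09). The mean level of the pan-neuronal list, 11.69 ± 0.09 (SD, n = 3) on the log2 scale in AcP controls and 11.55 ± 0.06 in CD25 controls, sets the scale for these small shifts.

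Interneuron markers were called in both directions. Of 16, 3 were higher (18.8%, against 4.35% over all genes) and 5 lower (31.2%, against 5.79%). With only the 6 arrays the counts were 3 and 1. The higher members were the calcium-binding proteins Calb1 at 1442, 1369.9 and 1369 against 656, 537 and 660.3 (1.16 ± 0.08, adjusted p = 2.3e-07), and Calb2 at 1792, 2029.8 and 1501 against 1294, 1273 and 1188 (0.49) and the peptide Vip at 215, 214 and 229.9 against 119, 136 and 143 (0.67 ± 0.09). The lower members included the transcription factors of interneuron precursors Sp8 at 228, 222 and 224 against 401, 426 and 452 (-0.88 ± 0.10), Dlx2 at 392, 415 and 449.8 against 664, 572 and 617 (-0.54 ± 0.09) and Dlx1 at 617, 745 and 754 against 1078, 954 and 1027 (-0.53). Dlx5, a related factor, and Npy, a peptide of mature interneurons, were the other 2 called lower (-0.30 and -0.36). Gad1, the GABA-synthesising enzyme of these cells, had a difference of 0.02 ± 0.04 with overlapping groups.

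Some synaptic and channel genes were higher, by small amounts. The shares called higher were 20.8% of vesicle and release genes, 21.7% of ion channel genes and 18.2% of receptor subunits, against 4.35% over all genes. The shares called lower were 4.17%, 0% and 4.55%, against 5.79%. Of 24 vesicle and release genes, 5 were higher and 1 lower (10 higher without AcP control 3, 2 with array medians centred, 1 with only the 6 arrays), with a median of 0.15, led by Pclo of the active zone (1165, 1273 and 1181 against 830.1, 833 and 913, 0.48 ± 0.09) and the vesicle protein Sv2b (1710.5, 1518 and 1440.5 against 1209, 1118 and 1085, 0.45 ± 0.06). Of 23 ion channel genes, 5 were higher and 0 lower (2 higher with array medians centred or with only the 6 arrays), with a median of 0.14. Kcnq3, a subunit of the M-current channel, read 2049, 1971 and 1865 against 1212, 1238 and 1285 (0.65 ± 0.07), and Kcnc2, a channel of fast-spiking cells, 403, 399 and 372 against 278, 262 and 224 (0.60 ± 0.09). Of 22 glutamate and GABA receptor subunits, 4 were higher and 1 lower, with 1 or 2 higher without AcP control 1 or any 1 CD25 control and 0 with only the 6 arrays, and Gabrb2 had the smallest adjusted p of those named, 2008, 1855 and 1976 against 1465, 1513 and 1550.2 (0.36 ± 0.04). Grik3 was the member called lower (-0.33 ± 0.08). That call was lost in 6 of 21 alternative fits, among them those without AcP control 2 or CD25 control 2. Of 23 neuropeptide and trophic factor genes, 3 were higher (13%) and 6 lower (26.1%), and 3 were lower without AcP control 2 or CD25 control 2 (1 higher and 0 lower with only the 6 arrays).

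Mitochondrial, ribosomal and splicing factor genes gave few calls. None of 23 mitochondrial respiratory chain genes and none of 12 ribosomal protein genes passed limma's test in either direction, and their medians were 0.07 and -0.04. At an unadjusted p under 0.05, 2 and 0 of the mitochondrial genes were higher and lower, and 0 and 2 of the ribosomal genes, while without AcP control 3 limma called 7 mitochondrial genes higher and 1 ribosomal gene higher, and with quantile normalization 3 ribosomal genes lower. Of 30 splicing factors 1 was lower (3.33%, against 5.79% over all genes). Of 22 unfolded protein and amino acid response genes 1 was higher (4.55%) and 2 lower (9.09%), with 4 lower without AcP control 3. Reference genes gave more calls, with 2 of 12 higher and 2 lower. That is 16.7% each, against 4.35% higher and 5.79% lower over all genes. Without AcP control 3, 4 reference genes were higher, and with array medians centred 0. The reference genes called lower were B2m and Tbp (-0.40 ± 0.09). Of 9 sex-linked and 7 erythroid genes 0 were called (0 higher and 4 lower, and 0 and 0, at an unadjusted p under 0.05).

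Some members of the proximal IL-1 pathway were called, in both directions. Of 25, 3 were higher (12%, against 4.35% over all genes) and 2 lower (8%, against 5.79%). The higher count was 5 without AcP control 3 and 0 with only the 6 arrays. Il18, a cytokine of the IL-1 family, read 614, 668 and 577 in AcP controls and 450.4, 426 and 471 in CD25 controls (0.45 ± 0.07), and Il33, a related nuclear cytokine, 101, 87.8 and 107 against 64.5, 60.97 and 69.1 (0.50 ± 0.07). Irak1, a kinase downstream of MyD88, was lower, 172, 155 and 163 against 214, 218 and 212 (-0.37 ± 0.05). Il1rapl1, a synaptic relative of AcP, was higher (0.31 ± 0.07). That call was lost in 5 of 21 alternative fits, among them those without AcP control 2 or CD25 control 1. Il1r1, the signalling receptor, was at or near 0 on all 6 arrays, none above 5.52. Il1r2, the decoy receptor, read 13.7, 7.85 and 13.2 against 28.7, 53.8 and 73.6 (-1.25 ± 0.40, adjusted p = 0.073), and Il1rn, the antagonist, 65.03, 113 and 55.8 against 41.3, 51.9 and 68.7 (0.40), neither passing. Of 22 genes of the NF-kB pathway 4 were lower (18.2%) and 1 higher (4.55%). The lower count was 2 without CD25 control 2 or CD25 control 3, with array weights, or with only the 6 or 12 unstimulated arrays. The largest difference was that of Tnfaip2 at 7.63, 10.6 and 8.30 against 83.5, 107 and 103 (-2.19 ± 0.24), while the inhibitor Nfkbia did not pass (-0.17).

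The same contrast was available in the 6 arrays that had received IL-1b, none of which entered the averages above, although they share the fit's estimate of spread. There 673 genes were higher in AcP than in CD25 cells (3.7%) and 752 lower (4.13%). Of the 792 genes higher in AcP controls, 734 had the same sign with IL-1b, 361 were called in the same direction and 1 in the opposite one. Of the 1054 lower genes, 970 had the same sign, 517 were called alike and 8 oppositely. Among the 239 genes called at 2-fold or more, 212 had the same sign and 158 were called alike. Cd109 was -4.47 with IL-1b against -4.92 without, Lgals1 -2.77 against -3.0, and Htra1 1.05 against 1.28. Cholesterol synthesis genes were 10 higher and 0 lower there, and progenitor markers 0 higher and 12 lower.

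Reading the contrast the other way, genes were picked from the IL-1b arrays alone and looked up in the controls. Genes called in both contrasts are the same from either side, so the counts called alike or oppositely repeat those above. Only the counts of the same sign, the medians and the levels are new. The 752 genes called lower in AcP than in CD25 cells with IL-1b gave 721 with the same sign in the controls, 517 called alike and 1 called oppositely, with a median of -0.49. Their mean level was 8.55, 8.55 and 8.61 on the CD25 controls and 7.94, 7.84 and 7.97 on the AcP controls. The 673 higher genes gave 620 with the same sign, 361 called alike and 8 called oppositely, with a median of 0.24 and levels of 9.05, 9.01 and 9.04 on the CD25 controls and 9.28, 9.28 and 9.32 on the AcP controls. In both sets the mean levels of the AcP and CD25 controls did not overlap. The 517 and 361 genes called alike are part of these means, so this gap is no separate finding. Control and IL-1b arrays of an arm may also share cultures.

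**Figure D4:**
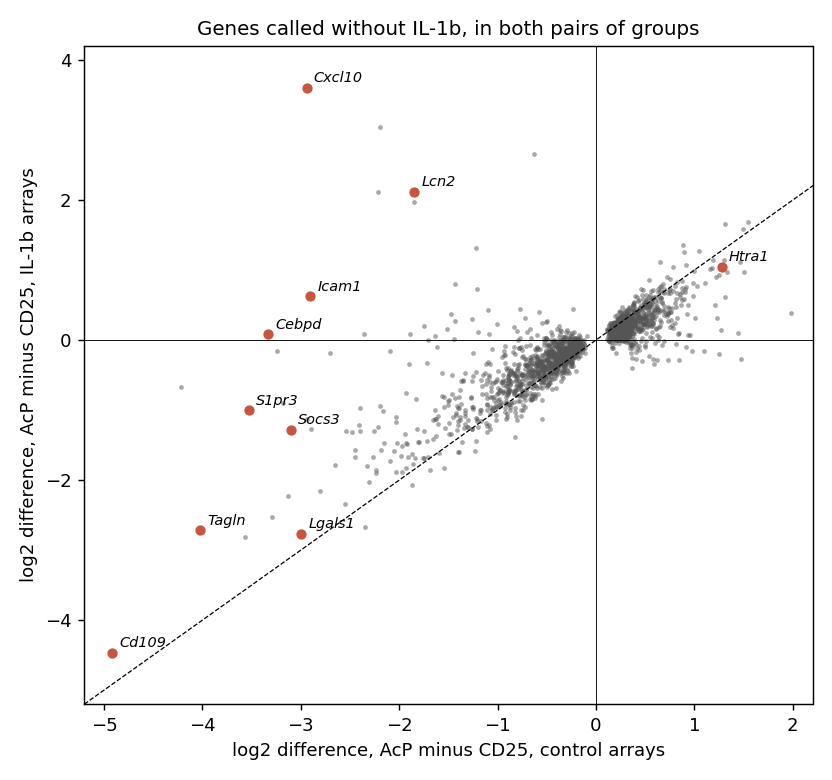
Log2 difference of AcP minus CD25 in the control arrays (horizontal) and in the IL-1b arrays (vertical) for the 1846 genes called in the controls, 1 point per gene, with 10 genes named in red. The dashed line marks equal differences. The sign is the same in 734 of 792 higher and 970 of 1054 lower genes, and a few inducible genes such as Cxcl10 (-2.94 and 3.60) and Lcn2 (-1.85 and 2.12) lie far above it.

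Called in opposite directions were 9 genes. The 8 genes lower without and higher with IL-1b were Cxcl10, Gbp2, Tnfaip2, Ptx3, Lcn2, Ier3, Nfkbiz and Pde4b. In the controls Nfkbiz and Pde4b were near the threshold (adjusted p = 0.043 and 0.048 in the limma fit). None of the other probe sets of Pde4b (5), Tnfaip2 (2), Nfkbiz (2) and Ptx3 (1) was called the same way there. Cxcl10 averaged 13.5 and 199 in AcP and CD25 controls, and 2512 and 191 with IL-1b. Ier3, an inducible survival factor, averaged 49.6 and 137, then 307 and 110.2. The 1 gene with the reverse order was Fyco1, which was dim throughout, at means of 50, 35.1, 27.6 and 41.4, and its other probe set was not called the same way either. The difference between the 2 contrasts itself passed the test in 33 genes, 23 of them called in the controls. Reactive astrocyte genes as a list read 4 higher and 11 lower with IL-1b, with a median of -0.63 against -1.62 without it. The mean level of that list was 6.64 ± 0.07 (SD, n = 3) in AcP controls, 7.81 ± 0.12 in AcP cells with IL-1b, 8.40 ± 0.10 in CD25 controls and 8.13 ± 0.19 in CD25 cells with IL-1b.

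The control arrays of the other 2 arms give further levels of the same genes. Comparisons with them share the CD25 or the AcP controls with the one above, so they are given only side by side, and the genes printed were chosen after their values were seen. The AcP+AcPb arrays carry other codes in their array names than the other 18 arrays, which share 1 code. The labels do not say what the codes stand for, so this arm and the code cannot be told apart. With only those 18 arrays in the fit, the AcP and CD25 controls gave 2681 called probe sets in place of 3185. Against the CD25 controls, AcPb controls had 260 genes higher and 616 lower, and AcP+AcPb controls 834 higher and 1526 lower, beside 792 and 1054 for AcP. Against the AcP controls, AcPb controls had 37 genes higher and 88 lower, and AcP+AcPb controls 9 higher and 28 lower. Both other arms thus gave more calls against the CD25 controls than against the AcP controls. S1pr3 averaged 437 in AcPb and 472 in AcP+AcPb controls, against 263 in AcP and 3195 in CD25 controls, and Socs3 62.9 and 72.4 against 53.6 and 582. Mvd averaged 510.3 and 697, between 376 in CD25 and 831 in AcP controls. Gfap averaged 568 in AcPb and 1360.2 in AcP+AcPb controls, beside 482 in AcP and 1936 in CD25 controls. Cdk1 averaged 307 and 112, beside 200.1 in AcP and 503 in CD25 controls.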

How the data were processed

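Total RNA of 24 samples was hybridised to 1-colour arrays, labelled with biotin per the labels' protocols. The deposited values are linear intensities per probe set, of which part are below 0. No source used here gives the summarisation or scaling. Values below 0 were set to 0, 16 was added and log2 taken, with no further normalization. Group means of the 8 groups were fitted with limma 3.58.1 in R 4.3.3 (lmFit and eBayes, 16 residual degrees of freedom) over 45037 probe sets. Symbols came from the platform annotation, where 34945 probe sets have 1 symbol, 932 several and 9160 none. Each gene is its brightest probe set over the 24 arrays. Genes were named as the 15 highest and 15 lowest called, non-overlapping and reaching 100, plus up to 4 per list by size, and any others were chosen after their values were seen. Members and the 34 gene lists were chosen with earlier results of these data known. The code was tested on simulated data. The array number alone bounds precision. Same-numbered AcP and CD25 controls did not deviate together (r = -0.091, 0.053 and -0.05), so no pairing was used. This check covered these 2 groups only. For oligodendrocyte lineage markers array 2 was the lowest in AcP and CD25 controls (7.22 and 6.984) and with IL-1b (6.979 and 7.106). For progenitor markers it was the highest in AcP controls (7.861) and the lowest in CD25 controls (8.235). An effect shared by arrays of the same number was not tested. In all, 21 alternatives were tried.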

Additional observations from a re-analysis of the deposited data

Results flagged for a closer look

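The difference between AcP and CD25 cells with IL-1b was tested against the same difference without it, as an interaction in the limma fit. It passed in 33 genes, and 4 of these are given here. Tnfaip2 (a change of 5.229, adjusted p = 6.8e-07) and Lcn2 (3.965, adjusted p = 0.00039) are among the others that passed. Cxcl10 had -2.94 in the controls and 3.60 with IL-1b, a change of 6.54 ± 0.46 on the log2 scale (SE, adjusted p = 1.5e-06). Icam1 had -2.90 and 0.62, a change of 3.53 ± 0.44 (adjusted p = 0.00073). Cebpd had -3.33 and 0.09, a change of 3.42 ± 0.38 (adjusted p = 0.00022). S1pr3 had -3.53 and -1.0, a change of 2.52 ± 0.28 (adjusted p = 0.00023). The 4 genes were named among those lowest in the same control arrays, without overlap between the groups. The change reuses those control values, so its size is not independent of that choice. With IL-1b the AcP mean was 2512 for Cxcl10, 274 for Icam1, 809 for Cebpd and 1307 for S1pr3, against 191, 170.4, 767 and 2626 in CD25 cells.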

How the results depend on the processing

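Across the 21 alternatives no named gene reversed and no called probe set changed sign. The 3185 calls were 405 with only the 6 arrays, 1881 with only the 12 unstimulated arrays and 1931 with array weights. Leaving out 1 array gave 2070 (without CD25 control 3) to 5146 (without AcP control 3). Others lay between 2128 (array medians centred, 31% of calls higher against 40.4%) and 3470 (quantile normalization). A fit with the replicate number as a block gave 3181, of which 2943 were among the 3185. The labels do not say whether the numbers pair the samples. Leaving out probe sets at the floor on all 24 arrays, an alternative chosen after seeing the data, gave 2822. Of 97 named genes called, 76 kept their call under every alternative but the 6 arrays alone, where 25 kept it. Some calls were lost in more alternatives than the arrays named above. Aldh1a1 lost its call in 11 of the 21, Plk3 and Snhg11 in 9, and Pnpla3, Serping1 and Cldn11 in 4. The cause of these changes was not tested. The smaller fits also hold fewer arrays. Values near 0, such as the AcP readings of Cd109, bound how far a fold change can be read.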
